A study of Mus musculus with 8 samples.

Results

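Gene expression under one hairpin against the integrin beta 3 gene Itgb3, called Itgb3-20, was set against that under a hairpin against luciferase (Luc), which served as the control. The comparison was chosen by the sample titles: 2 arrays of Itgb3-20, replicates 4 and 5, which are all the arrays of this hairpin, and 3 arrays of the Luc control, so 5 of the 8 arrays of the series. The remaining 3 arrays carry a second hairpin against the same gene, Itgb3-17, and are used where both hairpins are compared. All 8 arrays hold total RNA of primary leukaemia cells of the mouse, sorted for stem cells, with MLL-AF9 as the oncogene and on the C57BL/6 Actin-dsRed background. The cells came from the bone marrow of quaternary transplant leukaemic mice and were sorted as low for Hoechst dye, positive for dsRed and CD34, and high for c-kit and FcyRII. Thus the control cells carried the same oncogene, the same reporter and a hairpin of their own. The labels give no age or sex of the mice, and do not say whether each array is a separate mouse or a pool, so p-values measure the spread between these arrays, which may be technical. Each group is a sorted population, in which fewer cells of a type and less RNA per cell cannot be told apart.

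Integrin beta 3 is a cell surface subunit that pairs with the alpha v or the alpha IIb subunit to form receptors for matrix proteins such as vitronectin and fibrinogen, and the kinase Syk acts downstream of it. MLL-AF9 is a fusion protein that keeps the Hoxa genes and the cofactor Meis1 switched on and holds myeloid progenitors immature. Progenitors that leave that state and mature as granulocytes make the proteins of the primary granules first, such as myeloperoxidase. Secondary and tertiary granule proteins, such as lactoferrin, and the calprotectin pair S100a8 and S100a9 follow. The comparison asks what knockdown of Itgb3 does to gene expression in these cells.

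A probe counts as above background on an array where its detection p is under 0.05, and it was tested if that held for 2 or more of the 5 arrays, which left 10721 of the 45281 probes. Levels are normalized log2 signals, and a difference is Itgb3-20 minus the control on that scale, so that 1 is a doubling. A probe is called where the adjusted p from limma is under 0.05, and it rose or fell only in that case. For a gene with several probes, the tested probe of highest mean stands for the gene, which gave 6860 genes.

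The 8 arrays were alike in median signal, from 91.2 to 102, and in the number of probes above background, from 9262 to 11856. One Itgb3-20 array stood apart from the rest. On the second principal component of the tested probes, with 16.9% of the variance, replicate 4 lay at 24.6 and replicate 5 at 8.08, while the controls lay between -1.73 and 4.60 and the Itgb3-17 arrays between -14.5 and -11.0. On replicate 4, 413 probes were lower than the control mean by at least 1 and 257 were higher by as much, against 140 and 86 on replicate 5. Probes of the same gene also differed more on replicate 4, with a median gap of 0.486 between them, against 0.346 on replicate 5 and 0.270 to 0.289 on the controls. No source used here gives the RNA quality of the arrays. The part of this array in each result is given below by the value without it, in a fit where the single remaining Itgb3-20 array is assumed to vary like the other groups.

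**Figure D1:**
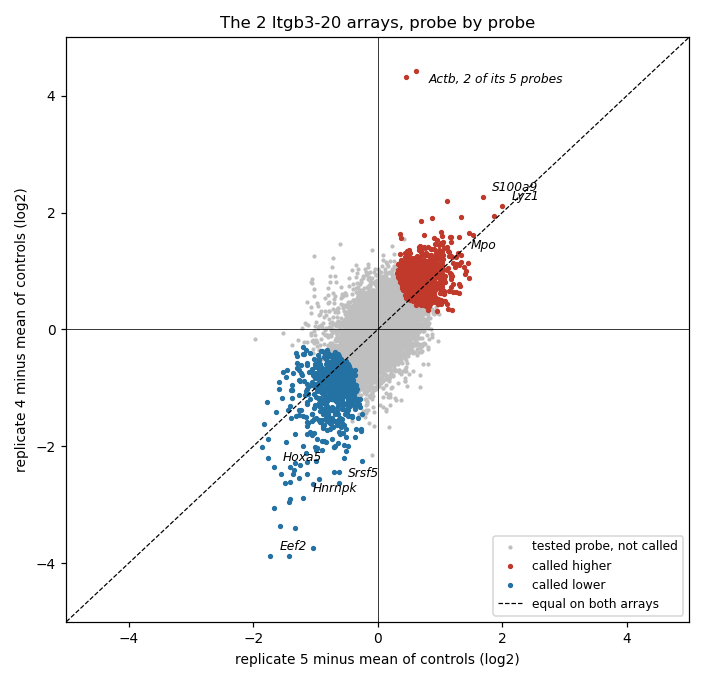
Difference of each tested probe from the mean of the 3 Luc controls on the log2 scale, with Itgb3-20 replicate 5 on the horizontal axis and replicate 4 on the vertical axis, and the diagonal marking equal values. Replicate 4 is the higher array for 69.5% of the probes called higher and the lower array for 73.5% of those called lower, and 2 probes of Actb lie more than 4 above the controls on replicate 4 alone.

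The targeted gene could not be followed. None of the 8 arrays (0 of 8) had the 1 Itgb3 probe above background, and its levels were 4.28, 4.31 and 4.24 in the controls and 4.22 on both Itgb3-20 arrays. Without the filter on dim probes its difference was -0.06 with an SE of 0.0729 (unadjusted p = 0.43, limma), so that these arrays give no check of the knockdown or of the labels. Syk was above background on 0 of 8 arrays as well.

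The markers of the labelled cells were mostly present. Of the sort markers, Kit was at 6.91, 7.23 and 6.85 in the controls and at 7.10 and 6.59 under Itgb3-20, so that the groups overlapped. Cd34 was above background on 1 of the 5 arrays, replicate 5, although the sort was for CD34. Fcgr2b, which encodes the Fc gamma receptor IIb, was 0.44 higher without passing the test (adjusted p = 0.092). The progenitor genes Mpo, Elane, Ctsg, Prtn3, Hoxa9 and Meis1 were above background on all 5 arrays, and the transcription factor gene Cebpa on none of them.

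Against the control, 793 probes rose and 717 fell, which is 7.4% and 6.69% of the tested probes. By gene, 539 rose and 446 fell, or 7.86% and 6.5% of 6860. A difference of at least 2-fold was reached by 60 of the genes that rose and 110 of those that fell. Leaving out replicate 4 kept the call of 83 of the 539 genes that rose and of 100 of the 446 that fell, and leaving out replicate 5 kept 400 and 336. Over all genes, 8.78% were called higher and 7.62% lower without replicate 5, and 1.24% and 1.79% without replicate 4. In each of the 5 fits that leave out 1 of these arrays, 63 of the genes that rose and 75 of those that fell were called. With both Itgb3-20 arrays above all 3 controls there were 2359 probes, 22% of those tested, and with both below there were 2023, 18.9%. All 793 probes that rose and 716 of the 717 that fell were separated in this way, so such a separation adds little to a call. Scaling each array by its median in place of quantile normalization left 202 probes called higher and 58 lower. Lyz1, S100a9, Mpo, Stfa2, Pglyrp1, Lyz2, Fcgr3, Hoxa5, Hmgb2, Eprs, Gins1 and Eef2 were called under all 9 other settings and without each of the 5 arrays in turn.

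Several of the genes that rose most were members of the granule and late neutrophil gene lists. Lyz1, which encodes a lysozyme, rose 4.16-fold, S100a9 rose 3.94-fold, the myeloperoxidase gene Mpo rose 2.47-fold and the stefin gene Stfa2 rose 2.46-fold. Between S100a9 and Mpo in size came Erich5, S100a13 and Mettl26, at 3.15-, 2.62- and 2.60-fold. Among 13 tested primary granule genes 4 rose and 0 fell, among 15 secondary and tertiary granule genes 5 rose and 0 fell, and among 14 calprotectin and late neutrophil genes 6 rose and 1 fell. Of these, Ltf, which rose, and Clec4e, which fell, passed the filter only through the group where they are high. Over all genes 7.86% rose and 6.5% fell. Without replicate 4 the lists had 3, 5 and 2 genes called higher and 0 called lower. Without replicate 5 the secondary and tertiary list and the calprotectin list also held genes called lower. The medians of these 3 lists were 0.30, 0.42 and 0.48, beside 0.03 over all genes. On replicate 4 alone they were 0.28, 0.43 and 0.46 (0.02 over all genes), and on replicate 5 alone 0.33, 0.45 and 0.43 (0.03 over all genes). Under median scaling, which moved the median of all tested probes to 0.11, the lists held 4, 4 and 3 genes called higher and 0 called lower.

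The promoters of the 4 granule and calprotectin genes of largest rise are shown because these genes moved together on both arrays. Each runs from 250 bases before to 50 bases after the start of the gene, 5′ to 3′, from RefSeq on GRCm38.p6. Capitals mark matches on either strand to TTNNGNAA, letters of the kind bound by C/EBP factors, and to GAGGAA, letters of the kind bound by PU.1. Both families of factors act in granulocyte development.
Lyz1, chr10:117292819-117293118, minus strand: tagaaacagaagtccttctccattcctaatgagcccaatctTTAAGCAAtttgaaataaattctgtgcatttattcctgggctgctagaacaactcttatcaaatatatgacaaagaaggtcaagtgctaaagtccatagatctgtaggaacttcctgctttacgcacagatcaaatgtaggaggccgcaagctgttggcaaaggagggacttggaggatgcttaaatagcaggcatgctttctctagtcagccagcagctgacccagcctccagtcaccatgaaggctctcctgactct
S100a9, chr3:90695672-90695971, minus strand: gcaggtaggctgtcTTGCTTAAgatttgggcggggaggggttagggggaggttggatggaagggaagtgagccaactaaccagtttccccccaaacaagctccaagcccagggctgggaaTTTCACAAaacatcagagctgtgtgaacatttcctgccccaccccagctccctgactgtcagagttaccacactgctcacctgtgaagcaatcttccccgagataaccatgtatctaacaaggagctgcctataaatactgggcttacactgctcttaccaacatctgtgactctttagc
Mpo, chr11:87793534-87793833, plus strand: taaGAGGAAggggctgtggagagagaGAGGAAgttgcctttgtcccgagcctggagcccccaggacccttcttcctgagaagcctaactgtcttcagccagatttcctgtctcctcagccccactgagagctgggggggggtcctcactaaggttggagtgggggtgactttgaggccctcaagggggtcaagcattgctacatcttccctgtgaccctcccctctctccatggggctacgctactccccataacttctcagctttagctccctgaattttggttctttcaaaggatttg
Stfa2, chr16:36408314-36408613, minus strand: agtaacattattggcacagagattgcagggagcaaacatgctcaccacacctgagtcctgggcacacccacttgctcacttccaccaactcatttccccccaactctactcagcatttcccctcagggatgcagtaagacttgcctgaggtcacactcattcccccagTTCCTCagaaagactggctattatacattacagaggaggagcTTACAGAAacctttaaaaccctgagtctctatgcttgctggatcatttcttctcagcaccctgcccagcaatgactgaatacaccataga

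The C/EBP letters stood once in the Lyz1 window, in 2 places in that of S100a9 and once in that of Stfa2. GAGGAA stood in 2 places in the Mpo window and once, on the opposite strand, in that of Stfa2. Of all 27025 promoters in the RefSeq table, 40.7% held the C/EBP letters and 28.3% the PU.1 letters. Of the 14 granule and late neutrophil genes that rose and have a promoter in the table, 7 held the former and 9 the latter. Over all genes that rose the shares were 31.6% and 27.6%, close to those of the tested genes, 31.5% and 26.2%. A match is a run of letters and not a known binding site.

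In the primary granule list, the Lyz1 levels were 7.85, 7.99 and 7.88 in the controls and 10.03 and 9.90 under Itgb3-20. Both Itgb3-20 arrays lay far above all controls and close to each other (difference 2.06 ± 0.178 SE, adjusted p = 6.43e-05), and the difference was 1.98 without replicate 4. Lyz2, the lysozyme gene of macrophages and granulocytes, stood at 7.68, 7.60 and 7.25 in the controls and at 8.53 and 8.55 under Itgb3-20. It rose by 1.03 on the log2 scale (adjusted p = 0.0044), again with no overlap. Lyz1 and Lyz2 are close copies of each other, and whether their probes tell them apart was not tested.

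Mpo has 4 tested probes, of which 3 rose, by 1.31, 1.90 and 1.58. The brightest read 9.93, 10.02 and 10.41 in the controls and 11.39 and 11.46 under Itgb3-20, with the groups well apart (adjusted p = 0.0014). The fourth and dimmest probe was 0.43 higher, which did not pass the test (adjusted p = 0.17). Elane, the gene of neutrophil elastase, was among the brightest in the controls already, at 12.16, 11.87 and 11.99, and reached 12.60 and 12.73. Its rise of 0.66 (adjusted p = 0.023) was no longer called without replicate 4 (adjusted p = 0.089), replicate 5 (adjusted p = 0.067) or Luc replicate 2 (adjusted p = 0.068). Ctsg and Prtn3, which encode cathepsin G and proteinase 3, were 0.31 and 0.30 higher without passing the test. The remaining tested genes of the list were not called in either direction. Ms4a3, Srgn and Hk3 were at 0.50, 0.22 and 0.14, and Serpinb1a, Ctsc, Cd63 and Cst7 at -0.47, -0.38, -0.29 and -0.16.

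Of the secondary and tertiary granule genes, Pglyrp1, which encodes a peptidoglycan recognition protein, was at 8.6, 8.39 and 8.58 in the controls and at 9.62 and 9.83 under Itgb3-20. That is a rise of 1.21 ± 0.172 SE (adjusted p = 0.0015). The stefin gene Stfa2 read 7.34, 7.95 and 7.48 against 8.73 and 9.05, and rose by 1.30 (adjusted p = 0.0029). Stefin genes lie in a family of near copies, which its probes may share. The lactoferrin gene Ltf was above background on 0 of 3 control arrays and on both Itgb3-20 arrays, at 5.29 and 5.88. It was at least 1.87-fold higher (adjusted p = 0.0031). Ltf passed the filter only through the Itgb3-20 arrays, where it is high, so its call adds no support. Camp, the gene of the cathelicidin antimicrobial peptide, was dim, at 4.80, 4.61 and 5.50 in the controls, of which 2 were above background, against 5.98 and 6.39. It rose by 1.21 (adjusted p = 0.010). Lcn2 and Ngp, genes of the same granules, were 0.42 and 0.20 higher without passing the test, with adjusted p of 0.16 and 0.55. Other uncalled genes of the list went both ways. Slpi, Stfa1, Fcnb and Mcemp1 were at 0.62, 0.45, 0.42 and 0.20, and Hp, Olfm4, Itgam and Cyba at -0.53, -0.47, -0.18 and -0.10.

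In the calprotectin and late neutrophil list, S100a9 was at 6.71, 7.21 and 7.36 in the controls and at 9.36 and 8.78 under Itgb3-20, a rise of 1.98 ± 0.231 SE (adjusted p = 0.00052). S100a8, the other subunit of calprotectin, was bright throughout, at 10.91, 11.17 and 10.94 against 11.82 and 11.72. Its rise of 0.76 (adjusted p = 0.0099) was not called without replicate 4 (0.69, adjusted p = 0.081). Alox5, which encodes the 5-lipoxygenase of leukotriene synthesis, rose by 1.02 (adjusted p = 0.0060), and a second probe of it was also called higher. Clec4e, a receptor gene of activated myeloid cells, went the other way: it was above background on all 3 controls and on neither Itgb3-20 array. It was at least 1.56-fold lower (adjusted p = 0.010). Clec4e passed the filter only through the controls, where it is high, so its call adds no support. Without replicate 4 that fall was not called (adjusted p = 0.068).

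Several markers of ripe neutrophils stayed dark. Mmp8, Mmp9, Retnlg, Fpr2 and Il1b were above background on none of the 5 arrays. Of the 25 secondary and tertiary granule genes with a probe, 8 were below background on all 5 arrays, as were 6 of the 23 calprotectin and late neutrophil genes. The granulocyte lists had higher mean levels on both Itgb3-20 arrays, the primary granule list for instance 9.40 and 9.56 against 9.04 to 9.15 in the controls over its tested genes. The part of the cell make-up of the sort in these levels was not tested.

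**Figure D2:**
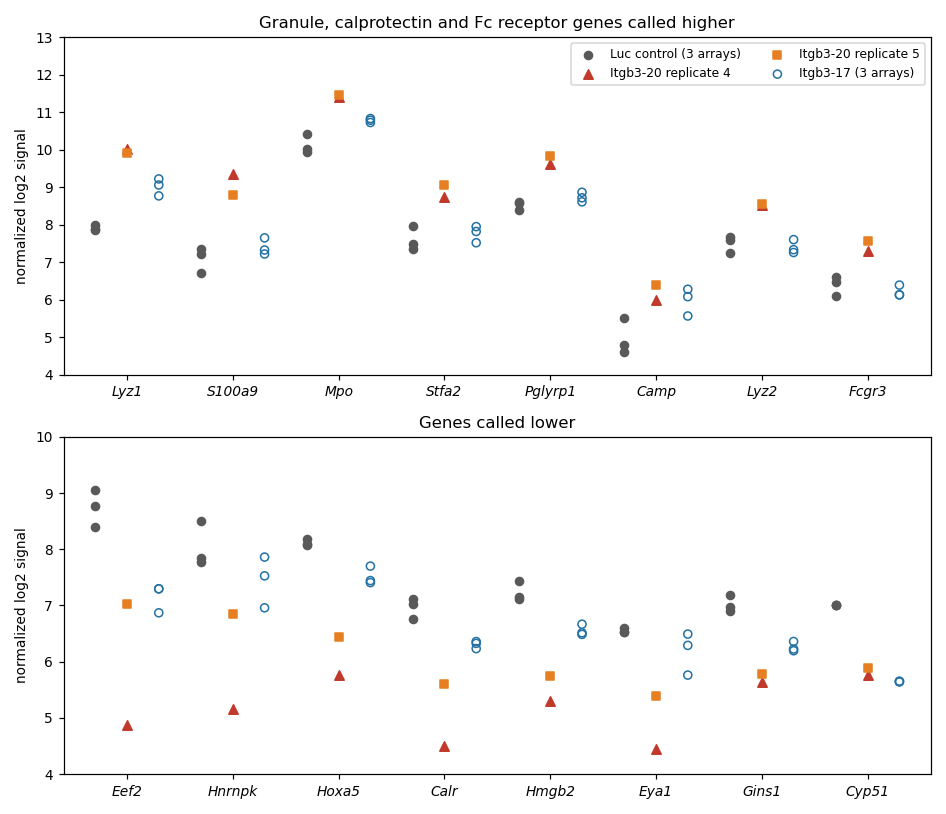
Normalized log2 signal of 8 genes called higher (upper panel) and 8 called lower (lower panel) on each of the 3 Luc control, 2 Itgb3-20 and 3 Itgb3-17 arrays, 1 point an array. In the upper panel both Itgb3-20 arrays lie above all 3 controls for each gene; in the lower panel both lie below, with replicate 4 the lower array, most so for Eef2 and Hnrnpk.

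Of 17 tested monocyte and macrophage genes 2 rose and 0 fell, 11.8% against 7.86% of all genes for rises, with a median of 0.04. Without replicate 4 none was called. Pld4, a phospholipase D family gene, was at 5.22, 5.19 and 5.57 in the controls and 6.38 and 5.97 under Itgb3-20, and rose by 0.84 (adjusted p = 0.015). Lgals3, the gene of galectin 3, was at 8.89, 8.27 and 8.31 against 9.64 and 8.95. It rose by 0.80 (adjusted p = 0.038), with 0.45 and an adjusted p of 0.35 without replicate 4, and Pld4 lost its call as well (0.65, adjusted p = 0.15). Without Luc replicate 2 or 3 Lgals3 was not called (adjusted p = 0.11 and 0.099). Fcgr3, the gene of the activating Fc gamma receptor III, was at 6.09, 6.48 and 6.60 in the controls and at 7.30 and 7.56 under Itgb3-20. It rose by 1.04 ± 0.194 SE (adjusted p = 0.0052).

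Of 21 tested transcription factor genes of the myeloid lineage 3 rose, namely Cebpe, Irf1 and Stat5a, and 2 fell, namely Ets1 and Fli1. That is 14.3% higher and 9.52% lower, against 7.86% and 6.5% of all genes. Cebpe, which drives the secondary granule programme, read 8.91, 8.93 and 9.05 in the controls and 9.81 and 9.63 under Itgb3-20. It rose by 0.76 (adjusted p = 0.0097), and 1 of its 3 other tested probes was called higher too. Its remaining probes, at 0.28 and -0.37, were not called (adjusted p = 0.29 and 0.26). Ets1, a factor best known in lymphoid cells, read 7.60, 8.02 and 7.21 against 6.17 and 6.55 and fell by 1.25 (adjusted p = 0.0041). Without replicate 4 only Ets1 of these kept its call, with a difference of -1.07 (adjusted p = 0.049), while Cebpe was at 0.67 (adjusted p = 0.086) and Fli1 at -0.64 (adjusted p = 0.16). Irf1 lost its call in each fit without 1 array except that without Luc replicate 3 (highest adjusted p = 0.14). After median scaling no gene of this list was called. Spi1, the gene of PU.1, was 0.64 higher without passing the test (adjusted p = 0.10), and Cebpb, Gfi1 and Runx1 were within 0.07 of the controls. Cdkn1c, a cell cycle inhibitor gene of quiescent stem cells, was the 1 of 5 tested stem cell genes called, and rose by 0.58 (adjusted p = 0.031), a call lost without replicate 4, replicate 5 or Luc replicate 2 (highest adjusted p = 0.13).

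Genes that MLL-AF9 keeps on were lower in part. Of 18 tested targets 4 fell and 0 rose (by the probe that stands for each gene), 22.2% against the 6.5% of all genes, and the median of the list was -0.34. After median scaling 2 were called lower. Hoxa5, a homeobox gene of the Hoxa cluster, was at 8.07, 8.18 and 8.10 in the controls and at 5.77 and 6.45 under Itgb3-20. Both Itgb3-20 arrays were far below the tight controls, a fall of 4.03-fold (difference -2.01 ± 0.203 SE, adjusted p = 0.00021), and the difference was -1.68 without replicate 4.

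Eya1, which encodes a transcriptional coactivator and phosphatase, was at 6.53, 6.53 and 6.59 in the controls and at 4.45 and 5.39 under Itgb3-20, where only replicate 5 was above background on this probe. It fell by 1.63 on the log2 scale (adjusted p = 0.0024), and the difference was -1.17 without replicate 4. A second Eya1 probe, above background on both Itgb3-20 arrays, overlapped the controls and was not called (-0.64, adjusted p = 0.11), with -0.14 without replicate 4. Cbx5, the gene of heterochromatin protein 1 alpha, read 6.02, 6.12 and 6.30 against 5.26 and 4.96, and fell by 1.04 (adjusted p = 0.0038). Hoxa9, a main effector of MLL fusions, read 6.76, 6.74 and 6.90 against 4.95 and 6.30. Its fall of 1.17 (adjusted p = 0.017) was -0.51 and not called without replicate 4 (adjusted p = 0.22). A second Hoxa9 probe, above background on 1 of the 2 Itgb3-20 arrays, was also called lower, at -1.51, and at -1.02 without replicate 4 (adjusted p = 0.0496). Meis1, at 6.88 and 6.98 against 6.72 to 6.93 in the controls, differed by 0.07 (adjusted p = 0.84), and Mef2c, Cdk6, Myb and Myc were not called.

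Few integrin genes were measurable. Of 26 integrin subunit genes with a probe, 14 were below background on all 5 arrays and 5 were tested. The alpha E subunit gene Itgae, which pairs with beta 7 in mucosal lymphocytes, was the 1 called. Its tested probe was above background on no control and on both Itgb3-20 arrays, at 5.07 and 4.82, at least 1.20-fold higher (adjusted p = 0.018), and was not called without replicate 4 (adjusted p = 0.15). The tested Itgae probe passed the filter only through the Itgb3-20 arrays, where it is high, so its call adds no support. Over the 6 probes of Itgae, 1 control array had a probe above background. Of 27 tested genes of integrin and Syk signalling 2 rose and 1 fell, 7.41% and 3.7%, against 7.86% and 6.5% of all genes, and 0 and 1 were called without replicate 4. The focal adhesion gene Vcl rose by 0.66 (adjusted p = 0.047), the guanine exchange factor gene Vav1 rose by 0.55 (adjusted p = 0.048), and Pik3r1, which encodes the regulatory subunit of PI3 kinase, fell by 0.81 (adjusted p = 0.046). Vcl and Vav1 were not called without replicate 4 (adjusted p = 0.36 and 0.17), nor Pik3r1 without replicate 5 (adjusted p = 0.31). Each of these 3 genes also lost its call without Luc replicate 1 or 3, and Vav1 and Pik3r1 without Luc replicate 2 (adjusted p from 0.050 to 0.14).

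Of 38 tested genes of the G1/S transition 2 rose and 6 fell, 15.8% against 6.5% of all genes, while of 30 genes of G2/M 0 rose and 2 fell (6.67%). Without replicate 4 the G1/S list had 1 higher and 3 lower and the G2/M list 0 and 1. The difference between these lists was not tested. Gins1, a subunit of the replicative helicase, was at 6.89, 7.19 and 6.97 in the controls and at 5.63 and 5.78 under Itgb3-20, with a fall of 1.31 ± 0.171 SE (adjusted p = 0.00097). Its partner Gins2 fell by 0.80 (adjusted p = 0.014), and Mcm7 of the same helicase fell by 0.97 (adjusted p = 0.024). Chaf1b, a subunit of the chromatin assembly factor, rose by 0.91 (adjusted p = 0.0054). The fall of Mcm7 was not called without replicate 4 (adjusted p = 0.13), Luc replicate 1 (adjusted p = 0.073) or Luc replicate 3 (adjusted p = 0.072), nor that of Gins2 without replicate 5 (adjusted p = 0.079). After median scaling 1 gene of the G1/S list was called lower and 1 higher.

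Hmgb2, a DNA-bending chromatin protein gene of dividing cells, stood at 7.15, 7.44 and 7.11 in the controls and at 5.31 and 5.75 under Itgb3-20, which is 3.25-fold lower (adjusted p = 0.00036). In the G2/M list Ckap2, which binds mitotic microtubules, fell by 1.15 (adjusted p = 0.0033), with replicate 5 alone of the Itgb3-20 arrays above background, and the contractile ring gene Anln fell by 0.54 (adjusted p = 0.049). The call of Anln was lost in each of the 5 fits without 1 array (adjusted p up to 0.22). Among 26 p53 targets and apoptosis regulators 2 rose and 1 fell (7.69% and 3.85%, against 7.86% and 6.5% of all genes). On its brightest probe cyclin G1 (Ccng1), a p53 target, fell by 1.16 (adjusted p = 0.0035), but its 2 other tested probes were at 0.04 and 0.22 and were not called (adjusted p = 0.93 and 0.46). The proapoptotic gene Bad rose by 1.04 (adjusted p = 0.0042) and the prosurvival gene Mcl1 by 0.85 (adjusted p = 0.012), the latter not called without replicate 5 (adjusted p = 0.068).

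Of 25 tested cholesterol and lipogenic genes 4 fell and 0 rose, 16% lower against 6.5% of all genes. The median of the list was -0.05. Cyp51, which encodes the lanosterol demethylase, was at 7.02, 7.01 and 7.01 in the controls and at 5.77 and 5.88 under Itgb3-20. Its fall of 1.19 (adjusted p = 0.0011) was as large without replicate 4, at -1.14. Erg28, a scaffold of the sterol demethylation complex, was at 8.61, 8.42 and 7.77 against 5.92 and 6.85 and fell by 1.88 (adjusted p = 0.0015) on its brightest probe. Its 2 other tested probes, above background on all 5 arrays, were 0.29 and 0.21 higher and were not called. Sqle, the gene of squalene epoxidase, fell by 1.04 (adjusted p = 0.010) and Nsdhl, a sterol dehydrogenase gene, by 0.69 (adjusted p = 0.036). A second Sqle probe, above background on 1 of the 2 Itgb3-20 arrays, was at -2.02, and at -1.57 without replicate 4 (adjusted p = 0.0074). Without replicate 4 neither the brighter Sqle probe (-0.73, adjusted p = 0.13) nor Nsdhl (-0.45, adjusted p = 0.295) was called, and Nsdhl was not called without Luc replicate 1 or 2 either (adjusted p = 0.063 and 0.11). After median scaling 1 gene of the list was called lower and its median was 0.045.

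Of 41 tested genes of folding and stress in the endoplasmic reticulum 9 fell and 2 rose, 22% against 6.5%. Calr, which encodes the chaperone calreticulin, was at 7.11, 6.77 and 7.02 in the controls and at 4.50 and 5.61 under Itgb3-20, above background on replicate 5 only. It fell by 1.91 (adjusted p = 0.0011), with -1.37 left without replicate 4. Sdf2l1, a stress-induced chaperone partner, fell by 1.12 (adjusted p = 0.0030), Spcs3 of the signal peptidase fell by 1.24 (adjusted p = 0.0040), and Preb, a factor of vesicle export, rose by 1.16 (adjusted p = 0.0018). Without replicate 4 the list had 2 genes called lower and 1 higher, beside 1.79% and 1.24% of all genes, and Spcs3 was not among them (adjusted p = 0.052). After median scaling 1 gene was called lower and 1 higher.

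The tRNA synthetase genes split. The glutamyl-prolyl synthetase gene Eprs was at 6.78, 6.81 and 6.82 in the controls and at 5.42 and 5.36 under Itgb3-20, a tight fall of 1.41 ± 0.162 SE (adjusted p = 0.00051). Mars1, the gene of the methionyl enzyme, went from 5.45, 5.70 and 4.97 to 6.63 and 6.55 and rose by 1.21 (adjusted p = 0.0041), and the alanyl enzyme gene Aars rose by 1.02 (adjusted p = 0.012, and 0.11 without replicate 4). A second probe of Eprs was 0.21 higher and one of Mars1 0.16 higher, neither of them called. In the list of ATF4 targets and tRNA synthetases 5 of 35 rose and 1 fell (14.3% and 2.86%), with 2 and 1 called without replicate 4. Over all genes 7.86% rose and 6.5% fell with all arrays in the fit. The 2 probes of the stress factor gene Atf4 went opposite ways: the brighter rose by 1.00 (adjusted p = 0.0056) and the other fell by 1.00 (adjusted p = 0.046), the latter at 5.85 on replicate 4 and 7.33 on replicate 5. The direction of Atf4 is therefore uncertain.

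In translation, 7 of 52 ribosomal protein genes rose and 3 fell (13.5% and 5.77%), with a median of 0.22, and 2 of 40 translation factor genes rose and 5 fell (5% and 12.5%), with a median of -0.17. Over all genes the shares were 7.86% and 6.5%. Without replicate 4 there were 0 ribosomal protein genes called higher and 1 lower, and 0 and 2 translation factor genes. Elongation factor 2 (Eef2) had the largest fall of all genes, from 9.06, 8.40 and 8.78 in the controls to 4.87 and 7.02 under Itgb3-20. The difference was -2.80 (adjusted p = 0.0018), and -1.72 without replicate 4, which is the lower array by 2.15. Its 2 other probes were also called lower. Eef1b2, a subunit of the exchange factor of elongation, fell by 1.01 (adjusted p = 0.0040), and Eef1d, another subunit of it, rose by 0.69 (adjusted p = 0.014). Of the ribosomal protein genes, Rpl30 was at 9.58, 9.74 and 9.39 against 7.92 and 8.43 and fell by 1.40 (adjusted p = 0.0012), while Rpl26, Rpl10a and Rpl32 rose by 0.94, 0.84 and 1.01 (adjusted p at most 0.010). Eef1d and these 3 were not called without replicate 4 (adjusted p from 0.076 to 0.13). After median scaling 6 ribosomal protein genes were called higher and 1 lower, and the median of the translation factors was 0.017. Many ribosomal protein genes have near-identical pseudogenes, and whether the probes read them was not tested.

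The 5 called genes with the largest gap between both Itgb3-20 arrays were Eef2, Hnrnpk, Srsf5, Hnrnph1 and Tpm3, each lower on replicate 4. Hnrnpk, which encodes a nuclear ribonucleoprotein, was at 8.50, 7.77 and 7.85 in the controls and at 5.16 and 6.84 under Itgb3-20. It fell by 2.04 (adjusted p = 0.0055), but its 2 other tested probes were not called and without replicate 4 the difference was -1.20 (adjusted p = 0.062). The splicing factor gene Srsf5 read 5.10 on replicate 4 and 7.12 on replicate 5 and fell by 1.63 (adjusted p = 0.014). Hnrnph1 read 5.67 and 7.66 and fell by 1.25 (adjusted p = 0.046), and the tropomyosin gene Tpm3 read 5.62 and 7.27 and fell by 1.37 (adjusted p = 0.029). None of these 3 was called without replicate 4, where the differences were -0.62, -0.26 and -0.55. Nor were Hnrnph1 and Tpm3 called without Luc replicate 1 or 2 (adjusted p from 0.058 to 0.099), or Hnrnph1 without Luc replicate 3 (adjusted p = 0.12). Rbbp7, a histone-binding subunit of chromatin complexes, kept its call, with -2.01 (adjusted p = 0.0018) and -1.41 without that array.

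Other probes of a named gene often did not share its call. Some genes called lower had at least 1 other tested probe that was higher without passing the test. Taking the highest such probe of each gene, the differences were 0.49 for Pfn1, 0.32 for Dnajb6, 0.29 for Erg28 and 0.22 for Ccng1. They were 0.21 for Eprs, 0.20 for Atp5pb, 0.17 for Hipk2, 0.15 for Psmb8 and 0.13 for Eef1b2. For Gins2, Trpc4ap and Anln they were 0.22, 0.10 and 0.09. A second Srsf5 probe was at -0.13 and was not called (limma adjusted p = 0.82). For Oas1g, Irf1 and Tmem214, all called higher, another probe was lower without passing the test (by -0.20, -0.04 and -0.12). The same held for Tcirg1, Cebpe and Psme1 (-0.45, -0.37 and -0.24). Second probes of Pglyrp1, Lyz2, Foxp3 and Rpl30 had the sign of the named one and were not called (0.15, 0.48, 0.18 and -0.33). Over 1807 genes with several tested probes, 56.7% of 3011 pairs of probes had differences of the same sign, and of 140 pairs with both probes called 26 were called in opposite directions. The actin gene Actb showed it most plainly. Of its 5 probes 2 fell, by 0.92 and 1.93, and 3 rose, by 1.34, by 2.52 and, for a probe above background on no control, by at least 4.29-fold. On the last 2 of these replicate 4 read 9.0 and 8.71 and replicate 5 read 5.18 and 4.85, against 4.31 to 4.88 in the controls, so that the probes give no single direction for Actb. Without replicate 4 both falling probes kept their call (-1.21 and -1.84, adjusted p = 0.012 and 0.0043) and none of the 3 rising ones did (adjusted p = 0.15, 0.40 and 0.45). Without replicate 5 the brightest probe, one of those that fell, was not called (adjusted p = 0.058). The part of RNA quality or of probe position in this was not tested.

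**Figure D3:**
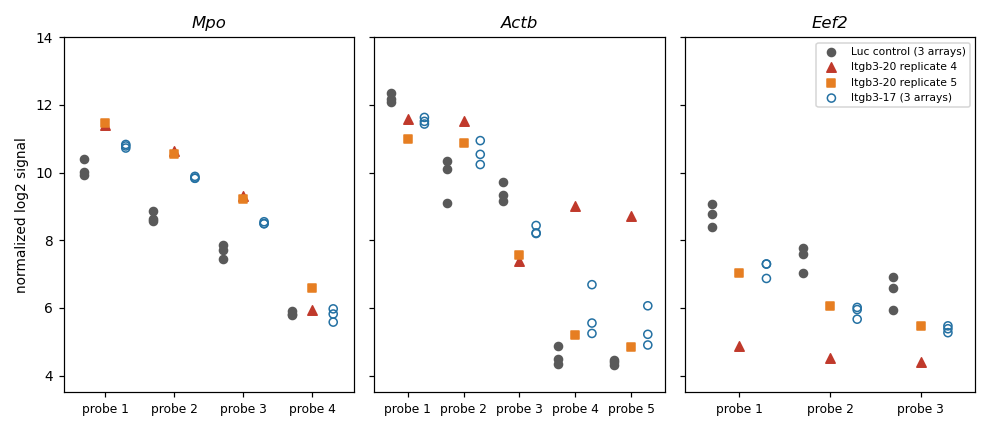
Normalized log2 signal of each tested probe of Mpo (4 probes), Actb (5) and Eef2 (3) on every array, 1 point an array. Both Itgb3-20 arrays agree on the first 3 Mpo probes, while replicate 4 is far above replicate 5 on 2 Actb probes and below it on all 3 Eef2 probes.

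Other genes among the 15 largest rises were of mixed function. Rin3, which encodes a Rab5 exchange factor, was at 5.36, 4.96 and 5.54 in the controls and at 6.53 and 6.54 under Itgb3-20 (1.25, adjusted p = 0.0022). Nlrx1, the gene of a mitochondrial innate immune regulator, was at 4.94, 4.75 and 4.51 against 5.88 and 6.07 (1.24, adjusted p = 0.0015). These 2 genes were alike on both Itgb3-20 arrays. The choice of the 15 largest rises required both arrays to lie above all controls, so the lack of overlap adds no support. Erich5, S100a13 and Mettl26 rose by 1.65, 1.39 and 1.38, and each lost its call without replicate 4 (adjusted p of 0.080, 0.068 and 0.067). Pi16, Tmem214 and Mcrip1 rose by 1.23, 1.23 and 1.21 and were called in each fit that leaves out 1 array. In all, 12 of the 15 largest rises and 10 of the 15 largest falls were called without replicate 4.

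Among the remaining large falls, Hipk2, which encodes a kinase of the p53 pathway, was at 8.45, 8.31 and 8.09 in the controls and at 6.87 and 6.65 under Itgb3-20 (-1.52, adjusted p = 0.00052). Here replicate 5 was the lower array. App, the gene of the amyloid precursor protein, was at 8.97, 9.03 and 8.75 against 6.92 and 7.71 (-1.60, adjusted p = 0.0021), and Pqlc3 fell by 1.56 (adjusted p = 0.00097). Hnrnpa2b1, Trpc4ap and Serp1 fell by 1.70, 1.62 and 1.51 and were not called without replicate 4 (adjusted p of 0.135, 0.052 and 0.056).

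Of 63 respiratory chain genes 9 rose and 7 fell, 14.3% and 11.1% against 7.86% and 6.5% of all genes, and without replicate 4 there was 1 in each direction. Ndufb10, a subunit gene of complex I, was at 5.04, 5.09 and 4.99 in the controls and 6.36 and 6.04 under Itgb3-20 and rose by 1.16 (adjusted p = 0.0018), while Atp5pb, a stalk subunit gene of the ATP synthase, fell by 0.94 (adjusted p = 0.0040). In glycolysis 4 of 23 genes rose and 2 fell, with 1 and 0 called without replicate 4. The aldolase gene Aldoa rose by 1.05 (adjusted p = 0.0060) and the phosphofructokinase gene Pfkp fell by 1.29 (adjusted p = 0.013), the latter not called without replicate 4 (adjusted p = 0.18). Of 34 genes of oxidant defence 5 rose and 3 fell, with a median of 0.25, and 1 and 0 were called without replicate 4. The glutaredoxin gene Glrx was at 8.19, 8.27 and 8.23 in the controls and at 9.32 and 9.23 under Itgb3-20, a tight rise of 1.04 (adjusted p = 0.0020), and a second probe of it was called higher.

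Of 45 lysosome and proton pump genes 6 rose and 1 fell (13.3% and 2.22%), with Hexa, the gene of the hexosaminidase alpha chain, 0.93 higher (adjusted p = 0.0097). The proteasome list had 3 of 37 higher and 4 lower, 8.11% and 10.8% against 7.86% and 6.5% of all genes, and none called without replicate 4. The immunoproteasome gene Psmb8 fell by 1.20 (adjusted p = 0.012), with -0.60 and an adjusted p of 0.15 without replicate 4. Interferon response genes had 5 of 29 higher and 2 lower (17.2% and 6.9%), among them Oas1g, which rose by 0.85 (adjusted p = 0.0082). Chaperone genes of the cytosol had 1 of 29 higher and 4 lower (3.45% and 13.8%), led by Dnajb6 with a fall of 1.34 (adjusted p = 0.0018). Myc targets and ribosome biogenesis genes had 4 of 34 higher and 3 lower, actin cytoskeleton genes 7 of 42 and 6, and inflammatory and immediate early genes 1 of 25 and 0. Without replicate 4 the lysosome, interferon and actin lists had 1 gene called higher each and 0, 0 and 1 lower, the chaperone list 0 and 4, and the Myc list none. In the inflammatory list Dusp6, a phosphatase that dampens ERK signalling, rose by 0.85 (adjusted p = 0.010).

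**Figure D4:**
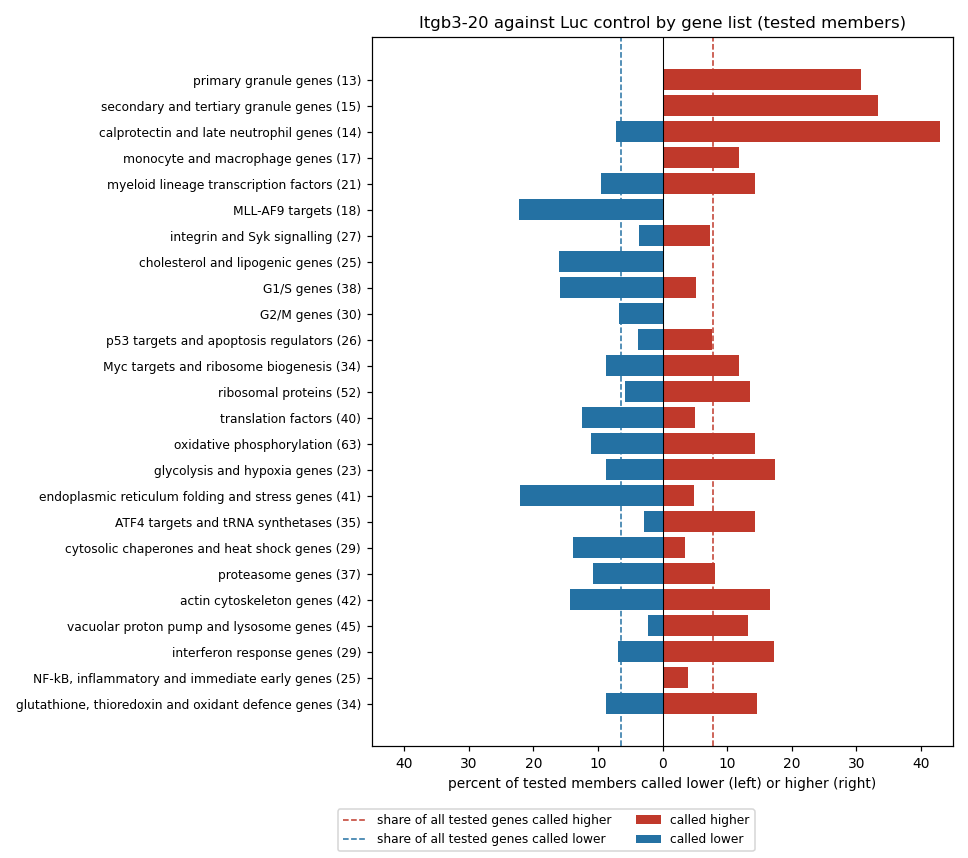
Percent of the tested members of each gene list with 10 or more of them called lower (bars to the left) or higher (bars to the right) in Itgb3-20 against the Luc control, with the number of tested members in brackets and dashed lines at the shares over all tested genes, 6.5% and 7.86%. Lists with under 10 tested members are not drawn. Of the lists drawn, the 3 granulocyte lists stand furthest to the right, at 30.8% to 42.9%, and the MLL-AF9 targets and the endoplasmic reticulum list furthest to the left, at 22.2% and 22%.

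Markers of other cell types were below background in part. Of 18 erythroid genes with a probe 15 were below background on all 5 arrays, of 19 B cell genes 16 were, of 15 NK and cytotoxic genes 13 were and of 23 stromal and endothelial genes 15 were. The same held for 8 of 18 megakaryocyte, 12 of 21 T cell, 13 of 25 mast cell, basophil and eosinophil and 10 of 24 dendritic cell and antigen presentation genes. The mean level of the erythroid list was 4.63 to 4.75 in the controls and 4.66 and 4.62 on replicates 4 and 5, and that of the B cell list 4.39 to 4.43 against 4.42 and 4.44. Among the few tested markers, Foxp3, the regulatory T cell factor gene, was at 6.63, 6.17 and 6.75 in the controls and at 7.78 and 7.67 under Itgb3-20, and rose by 1.21 (adjusted p = 0.0023). The perforin gene Prf1 rose by 1.05 (adjusted p = 0.021) and was not called without replicate 4 (adjusted p = 0.22) or Luc replicate 1 (adjusted p = 0.063). The mast cell protease gene Cpa3 was above background on no control and on both Itgb3-20 arrays. It was at least 1.58-fold higher (adjusted p = 0.0099), but passed the filter only through the Itgb3-20 arrays, so its call adds no support. H2-DMa, of antigen presentation, fell by 0.74 (adjusted p = 0.014). Cpa3 and H2-DMa were not called without replicate 4 (adjusted p = 0.085 and 0.073). These were the 1 of 5 tested T cell genes, 1 of 2 NK and cytotoxic genes, 1 of 7 mast cell, basophil and eosinophil genes and 1 of 7 dendritic cell genes that were called. Over all genes 7.86% were called higher and 6.5% lower. The single tested gene of each of the erythroid, megakaryocyte and B cell lists and the 3 tested stromal genes were not called. The part of other cell types in the called genes was not tested. Xist, which female cells express, was at 5.54, 6.29 and 6.14 in the controls and at 7.02 and 5.67 on replicates 4 and 5, with overlap (adjusted p = 0.50).

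Both hairpins were set against the same 3 control arrays, so that their differences from the control are not independent. The contrast of Itgb3-20 with Itgb3-17 does not use the controls as a group. In it, 32 probes were higher under Itgb3-20 and 35 lower, 0.298% and 0.326% of those tested and 0.625% together, beside the 1718 probes, 16%, called between Itgb3-17 and the control. S100a9 was 1.98 above the control under Itgb3-20 and 0.30 under Itgb3-17, and the hairpins differed by 1.67 (adjusted p = 0.0098). Lyz2 was 1.03 above under Itgb3-20 and at -0.11 under Itgb3-17, a difference of 1.14 (adjusted p = 0.014), and Fcgr3 was at 1.04 and -0.18, a difference of 1.21 (adjusted p = 0.014). Lyz1 rose under both, by 2.06 and 1.11, and still differed by 0.95 (adjusted p = 0.033). Mpo rose by 1.31 and 0.66, and the hairpins did not differ past the threshold (0.65, adjusted p = 0.12), nor did they for Ltf (0.03, adjusted p = 0.97) and Camp (0.21, adjusted p = 0.80).

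On the lower side, Hoxa5 was at -2.01 under Itgb3-20 and -0.60 under Itgb3-17, a difference of -1.41 (adjusted p = 0.0098). Eprs was at -1.41 and -0.25, a difference of -1.17 (adjusted p = 0.0098), and Eya1 at -1.63 and -0.37, a difference of -1.26 (adjusted p = 0.042). For Cyp51 the values were -1.19 and -1.37, and the difference of 0.18 did not pass the test (adjusted p = 0.69). Hipk2 fell by 1.52 under both.

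Some genes differed between the hairpins while Itgb3-20 itself did not depart from the control. Prg2, the gene of eosinophil major basic protein, was at 0.36 (adjusted p = 0.21) under Itgb3-20 and fell by 1.14 under Itgb3-17, a difference of 1.5 (adjusted p = 0.0098). Cox6a2, a cytochrome oxidase subunit gene, was at 0.05 and -1.17, a difference of 1.22 (adjusted p = 0.0098). The puma gene Bbc3, a p53 target, was at -0.02 and 1.21, a difference of -1.23 (adjusted p = 0.029), and was above background on 1 of the 2 Itgb3-20 arrays. The lysosomal glucosidase gene Gaa was at -0.41 and 0.84, a difference of -1.25 (adjusted p = 0.022). Under median scaling, where the median probe differed by -0.13 between the hairpins, 0 probes were called higher and 2 lower (limma), with 93 and 902 at an unadjusted p under 0.05.

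**Figure D5:**
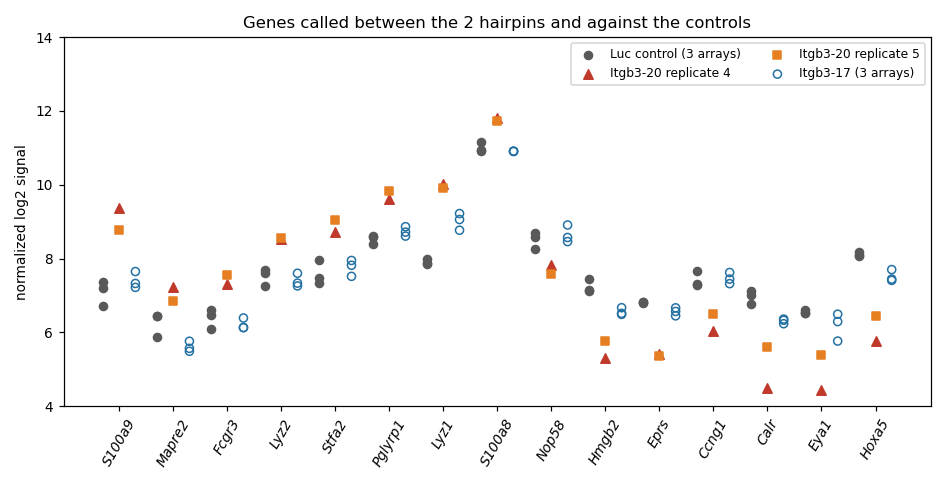
Normalized log2 signal on every array for the 15 named genes called both between Itgb3-20 and Itgb3-17 and between Itgb3-20 and the Luc control, ordered by the difference between the hairpins, 1 point an array. For each gene both Itgb3-20 arrays lie outside the range of the 3 Itgb3-17 arrays, which the choice of genes by this contrast makes likely.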

How the data were processed

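Expression was measured on Illumina bead arrays from total RNA, isolated with Trizol and labelled with biotin, per the labels' protocols. The deposited signal of each probe is a bead intensity on a linear scale, not normalized, per the file headers. The authors deposited a detection p-value beside it, and no source used here says how it was made. A deposited table of processed log2 values, in which the authors' scale was found by comparison with the signals and the offset is unknown, served as an alternative.

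Arrays were grouped by title. The signals went through limma's normexp (limma 3.58.1, R 4.3.3) with negative controls taken from the detection p-values and an offset of 16, then through quantile normalization, and were logged (base 2). Probes above background (detection p under 0.05) on 2 or more of the 5 arrays were fitted over all 8 arrays with 3 groups (lmFit, eBayes) and p-values were adjusted by Benjamini-Hochberg over 10721 probes. Of all probes, 34885 had 1 symbol in the platform annotation, 18 had several and 10378 had none. The number of arrays limits the precision (median SE 0.193). Where a gene was above background on no array of a group, its fold is given as at least a value, from the bright group's mean against the lowest signal above background on each dim array, or the probe's own if higher.

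Named genes are Itgb3, the 15 largest rises and falls with both Itgb3-20 arrays on one side of all controls, up to 4 called members of lowest p in each of 37 gene lists, the 10 largest called differences between the hairpins, the 5 called genes with the largest gap between the Itgb3-20 arrays, and Syk and the sort markers. Genes given as not called, the late neutrophil genes below background and Stat5a were chosen after their values were seen. The comparison, the lists and the rule were chosen with earlier results of these data known. The test was also run on simulated data, but no outcome of that run is given here, so it lends no support to the calls. Alternatives covered background correction, scaling, the filter, the arrays in the fit, moderation, array weights, the authors' values and leaving out each array.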

Additional observations from a re-analysis of the deposited data

Results flagged for a closer look

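For 15 named genes, each read on the probe that stands for it, the 2 hairpins gave different responses against the shared controls, by limma's test of the difference between Itgb3-20 and Itgb3-17, with adjusted p from 0.0098 to 0.044. In each of the 15 both Itgb3-20 arrays lay outside the range of the 3 Itgb3-17 arrays. The genes were chosen by their call in this same contrast, so that separation adds no support. Genes of the granule and late neutrophil lists were higher under Itgb3-20: S100a9 by 1.67, Lyz2 by 1.14, Stfa2 by 1.13, Pglyrp1 by 1.00, Lyz1 by 0.95 and S100a8 by 0.86 on the log2 scale. The Fc gamma receptor III gene Fcgr3 was higher by 1.21, and Mapre2, a gene of a microtubule end-binding protein, by 1.42. Mapre2 was 0.77 above the control under Itgb3-20 (adjusted p = 0.026) and 0.65 below it under Itgb3-17 (-0.65, adjusted p = 0.030).

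The other 7 genes were lower under Itgb3-20 than under Itgb3-17. The differences were -1.41 for Hoxa5, -1.26 for Eya1, -1.25 for Calr and -1.03 for Hmgb2, all of which fell against the control. They were -1.20 for the p53 target Ccng1, -1.17 for the tRNA synthetase gene Eprs and -0.95 for Nop58, a core protein of small nucleolar ribonucleoproteins. Calr and the probe that stands for Eya1 were above background on 1 of the 2 Itgb3-20 arrays. Other tested probes of these genes were not called between the hairpins. They were at -0.59 and -0.50 for Ccng1, -0.26 for Eprs and -0.47 for Eya1. For Stfa2, Lyz2 and Pglyrp1 they were at 0.80, 0.08 and -0.08. Without Itgb3-20 replicate 4, 8 of the 15 differences were called, and under median scaling 0 were, with the adjusted p of S100a9 at 0.067 and that of Hoxa5 at 0.071. S100a9 was called in all 8 fits that leave out 1 array, with differences from 1.38 to 1.96, and Eya1 in 2 of the 8, with differences from -1.71 to -0.80. Their cause was not tested.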

How the results depend on the processing

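Of the 793 probes called higher and 717 called lower, other settings gave the following counts. Median scaling gave 202 and 58, no filter on dim probes 411 and 336, array weights 336 and 361, and a fit on the 5 arrays alone 495 higher. The split between higher and lower was 52.5% higher, and 77.7% under median scaling, which kept 201 of the rises and 58 of the falls. Leaving out 1 array gave 136 to 872 higher and 193 to 896 lower. The lowest counts were those without Itgb3-20 replicate 4, and those without Luc replicate 2 (471 and 473) and, for rises, without Luc replicate 1 (507) were also under the counts by more than 1.5 times. Between the hairpins, 32 higher and 35 lower became 104 and 95 with no background correction, 0 and 2 with median scaling, 0 and 1 with no filter, 79 and 61 for probes detected on all 5 arrays, 86 and 97 with trend and robust moderation, and 111 and 120 with the authors' values. With no filter, limma gave 1919 higher and 1501 lower at an unadjusted p under 0.05. Leaving out 1 array gave 2 to 72 higher and 0 to 163 lower, with 2 and 0 without Itgb3-17 replicate 2 (503 and 533 at an unadjusted p under 0.05), 11 and 6 without replicate 1, and 7 and 7 without replicate 3 of that hairpin. Without Luc replicate 2 or 3 the lower count was 23 or 22. Of the 123 named genes tested, 61 lost their call without replicate 4, 10 without replicate 5, 62 after scaling by the median and 42 when dim probes were kept. Only 3 named genes changed sign, each uncalled in the comparison with the control. Bbc3 went to 0.11 and Kit to 0.040 under median scaling. With 1 array left out, Bbc3 ranged from -0.36 (without replicate 5) to 0.34 (without replicate 4), Cox6a2 from -0.061 (without 5) to 0.16 (without 4) and Kit from -0.41 (without 4) to 0.10 (without 5). The cause was not tested. No paired analysis was possible because the Itgb3-20 arrays, replicates 4 and 5, share no replicate number with the 3 controls.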
